A study of Mus musculus with 2 samples.

Results

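The genes of the sperm tail's outer dense fibres and fibrous sheath described here are 9 of the 43346 Ensembl genes in the deposited tables, taken by symbol: Odf1, Odf2, Odf3 and Odf4 for the outer dense fibres, and Akap3, Akap4, Fscb, Ropn1 and Ropn1l for the fibrous sheath. All 9 were found, with 41 annotated transcripts between them.

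The sperm tail carries, around its microtubule axoneme, a set of outer dense fibres and, over most of its length, a fibrous sheath. Outer dense fibres are cysteine-rich columns that stiffen and protect the tail. The fibrous sheath is a scaffold that holds protein kinase A and glycolytic enzymes close to the axoneme, and it is built largely from A-kinase anchoring proteins. Both structures are laid down in elongating spermatids.

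The samples were 2 poly(A)-selected RNA libraries of whole testis from 8-week-old C57BL/6J male mice, sequenced as stranded read pairs of 76 nucleotides. The labels call them biological replicates 1 and 2 from littermates, yet give both the same donor identifier, so whether they came from separate animals is not settled. There is 1 group with no treatment or altered genotype, and every SD measures only the spread between these libraries, which may be technical. Expected counts over Ensembl genes summed to 49023238 in replicate 1 and 51465728 in replicate 2. Levels are given as TPM, transcripts per 1e6, a unit corrected for transcript length.

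The tissue label was checked against marker genes. A gene counts as detected here when its TPM is 1 or more in each library. All 4 spermatid markers were detected, among them the protamine and transition protein genes, and summed to 64192 TPM in replicate 1 and 60180.4 TPM in replicate 2. All 4 spermatocyte, 5 Sertoli and 4 Leydig markers were detected too. The spermatocyte markers summed to 3350 TPM in replicate 1 and 3891 TPM in replicate 2, and the Leydig markers to 4466 and 5523 TPM. A single gene made up most of each sum. These were Ldhc, at 2593 TPM in replicate 1 and 3228 TPM in replicate 2, and Insl3, at 4187 and 5278 TPM. Ldhc is also in the list of fibrous sheath associated genes used below. By TPM, 3 of the 4 genes in each of the spermatocyte and Leydig lists were higher in replicate 2. Of the Leydig markers, however, Cyp11a1 (80.45 and 80.87 TPM) and Star (15.03 and 15.5 TPM) were nearly level. The genes higher in replicate 1 were Hspa2 among the spermatocyte markers (740 and 641 TPM) and Cyp17a1 among the Leydig markers (183 and 148 TPM). Each of the 5 Sertoli markers was higher in replicate 2, and they summed to 219 TPM in replicate 1 and 298 TPM in replicate 2. Of 9 epididymis markers 1 was detected, Rnase10, with 2.42 TPM in replicate 1 and 3.23 TPM in replicate 2. The 9 summed to 465 TPM in replicate 1 and 3.61 TPM in replicate 2. Crisp1, a secreted protein gene of the epididymis, made up most of the replicate 1 sum, with 454 TPM in replicate 1 and 0.2 TPM in replicate 2. Adam7 had 6.87 TPM in replicate 1 and 0 in replicate 2. Of the 9 genes 5 were higher in replicate 1, 3 were higher in replicate 2, and 1 had no count in either. Of 6 markers of multiciliated epithelium 3 were detected. Foxj1 had 86.7 TPM in replicate 1 and 65.4 TPM in replicate 2, Deup1 65.5 and 68.1, and Ccno 5.70 and 4.29. Mcidas, Gmnc and Rsph4a stood at 0.12 TPM or less. The 6 summed to 158 TPM in replicate 1 and 138 TPM in replicate 2.

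Sequences around the start of 3 fibrous sheath genes are shown first, because they hold a run of letters in common before their starts. They run from 100 bases before to 30 bases after the annotated transcription start, in RefSeq's promoter table on GRCm38.p6, which covers 8 of the 9 genes with 12 starts and does not list Odf1. Capitals mark a run of 20 bases common to Akap3 and Akap4, and each further match to TGATGTCA, a variant of the cAMP response element TGACGTCA.
Akap4 upstream start, chrX:7067415-7067544, plus strand: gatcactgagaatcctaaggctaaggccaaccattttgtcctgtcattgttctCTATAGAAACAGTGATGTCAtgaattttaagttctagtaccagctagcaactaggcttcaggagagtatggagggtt
Akap3, chr6:126852998-126853127, plus strand: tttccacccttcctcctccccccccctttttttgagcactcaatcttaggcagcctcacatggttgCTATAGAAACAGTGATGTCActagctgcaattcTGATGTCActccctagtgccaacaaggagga
Fscb, chr12:64474869-64474998, minus strand: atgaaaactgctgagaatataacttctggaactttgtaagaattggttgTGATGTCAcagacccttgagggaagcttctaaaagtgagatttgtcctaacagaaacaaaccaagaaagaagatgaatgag
Akap4 downstream start, chrX:7068110-7068239, plus strand, with no match: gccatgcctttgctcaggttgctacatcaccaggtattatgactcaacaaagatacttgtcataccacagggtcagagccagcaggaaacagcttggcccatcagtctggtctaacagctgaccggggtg

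The letters of this search were chosen after the sequences had been read, and the matches are a description of the windows, not of any factor. On either strand, TGATGTCA occurred in 3 of the 12 windows of these genes, against 1189 of all 32851 promoter windows of 300 bases (3.62%). The canonical TGACGTCA occurred in none of the 12, against 588 of the 32851 (1.79%). The run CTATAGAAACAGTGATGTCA, which contains TGATGTCA, occurred in 2 of the 32851 windows, those of Akap3 and Akap4. It began 34 bases before the start of Akap3 and 47 bases before the upstream start of Akap4. The TGATGTCA of Fscb began 51 bases before its RefSeq start, and a second one in Akap3 began 1 base before the start. For Fscb the annotations disagree, with the start at 64474898 in RefSeq and at 64474690, farther from the match, in GENCODE M21. Between windows of any other pair of the genes, the longest shared run had 14 bases, for Odf2 and Akap3.

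**Figure D1:**
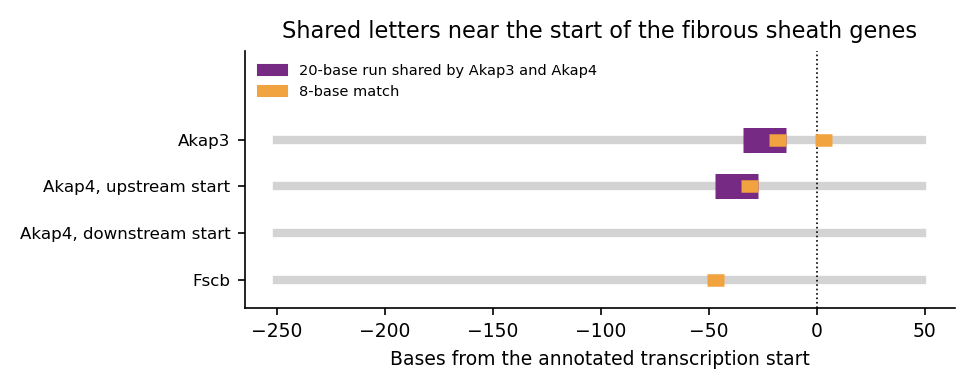
Position of the shared letters in the promoter windows of Akap3, Akap4 and Fscb, with the distance from the annotated transcription start in bases on the horizontal axis and 1 window per row. The 20-base run (purple) lies before the start of Akap3 and before the upstream start of Akap4. The 8-base matches (orange) lie within 51 bases of the RefSeq start.

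Each of the 9 genes was detected, against 62.1% of the 21461 nuclear protein-coding genes, and most stood far above the typical gene. The median of their mean TPM was 488, against 12.9 over the 13327 detected nuclear protein-coding genes. Both libraries reached 100 TPM for 8 of the 9 genes and for 11.8% of those 13327. Together the 9 genes held 1.10% of nuclear protein-coding TPM in replicate 1 and 1.06% in replicate 2, and 0.824% and 0.785% of all counts. The highest, Odf1, stood 68.0 times above the lowest, Fscb, by mean TPM. These comparisons with other genes carry no test, since the libraries form 1 group. The 9 genes were also chosen with earlier results of these data known, so the contrast with all genes is a description only.

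Odf1, which encodes the main small-heat-shock-like protein of the outer dense fibres, was the highest of the set. It had 3369 TPM in replicate 1 and 3327 TPM in replicate 2 (mean 3348 ± 29.4, SD, n = 2) and ranked 12th of 21461 nuclear protein-coding genes. Its expected counts were 122826 and 125916, or 0.251% (95% Wilson interval 0.249 to 0.252) and 0.245% (0.243 to 0.246) of all counts. The libraries were close for this gene, and the tables hold 1 transcript of 2 exons for it, on chromosome 15 at 38219203 to 38226735.

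Odf2, on chromosome 2 at 29889221 to 29931746, encodes both a major fibre protein and, in other cells, cenexin, a protein of the appendages of the mother centriole. Its TPM was 1953 in replicate 1 and 1624 in replicate 2 (1788 ± 233, SD, n = 2), the second highest level of the set. Replicate 1 was the higher library, and Odf2 had the largest SD of the 9 genes. As described below, much of this gene level comes from short transcripts without a coding sequence.

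The other outer dense fibre genes stood lower. Odf3, which encodes a sperm tail protein with Pro-Gly-Pro repeats, lies on chromosome 7 at 140847805 to 140851018 and had 509 TPM in replicate 1 and 467 TPM in replicate 2. Odf4, for a testis protein of the sperm tail, lies on chromosome 11 at 68921835 to 68927081 and had 454 TPM in replicate 1 and 437 TPM in replicate 2. The ranges of these genes did not overlap, although their means, 488 ± 29.8 for Odf3 and 446 ± 12.05 for Odf4 (SD, n = 2), were close.

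Among the sheath genes the ropporin pair led. Ropn1l encodes an A-kinase anchoring protein-associated sperm protein, and Ropn1 encodes ropporin. Both proteins carry a docking domain like that of the regulatory subunit of protein kinase A. Ropn1l, on chromosome 15 at 31441211 to 31453737, had 1429 TPM in replicate 1 and 1270.1 TPM in replicate 2 (1349 ± 112, SD, n = 2). Ropn1, on chromosome 16 at 34649921 to 34678618, had 828 TPM in replicate 1 and 842 TPM in replicate 2 (835 ± 9.65, SD, n = 2). Ropn1l was the higher of the pair in both libraries, by 1.62 times on the means. Their coding sequences, of 654 and 636 bases, were 62.5% identical over 611 aligned bases, with gapped bases left out. The longest run shared by the transcripts was 14 bases, shorter than a read.

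The anchoring protein genes of the sheath came next. Akap4 encodes the most abundant structural protein of the sheath and is an X-linked gene, at 7067519 to 7078609 on the X chromosome. It had 442 TPM in replicate 1 and 469 TPM in replicate 2 (455 ± 19.0, SD, n = 2). Akap3, whose product is built into the sheath with that of Akap4, lies on chromosome 6 at 126853098 to 126874308 and had 373 TPM in replicate 1 and 355 TPM in replicate 2 (364 ± 12.9, SD, n = 2). Akap4 exceeded Akap3 in both libraries. Their coding sequences, of 2547 and 2592 bases, were 66.2% identical over 2234 aligned bases, with gapped bases left out. The longest run shared by the transcripts had 17 bases.

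Fscb, which encodes a sheath protein that binds the calcium-binding protein CABYR, stood apart at the low end. Its TPM was 47.3 in replicate 1 and 51.2 in replicate 2 (49.2 ± 2.76, SD, n = 2), a rank of 2958 among protein-coding genes. It is a gene of 1 exon on chromosome 12 at 64471330 to 64474690, and its transcript was 3566 bases long in the files and 3361 bases in GENCODE M21. Its expected counts, 6416 and 7241, were the lowest of the set.

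By mean TPM the order was Odf1, Odf2, Ropn1l, Ropn1, Odf3, Akap4, Odf4, Akap3 and Fscb. Neighbours in this order had ranges that did not overlap, except Odf3 with Akap4 and Akap4 with Odf4. The widest gap was between Akap3 and Fscb, at 7.39 times. When only protein-coding transcripts were summed, a choice made after seeing the data, Odf2 had 904 TPM in replicate 1 and 832 TPM in replicate 2. That placed it after Ropn1l, in a range overlapping that of Ropn1. Odf4 then had 104 TPM in replicate 1 and 111 TPM in replicate 2, and stood between Akap3 and Fscb. That sum includes Odf4-202, a model annotated as coding that ends at a premature stop codon described below. The full-length Odf4-201 alone had 44.5 TPM in replicate 1 and 60.6 TPM in replicate 2, a range that overlapped that of Fscb.

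**Figure D2:**
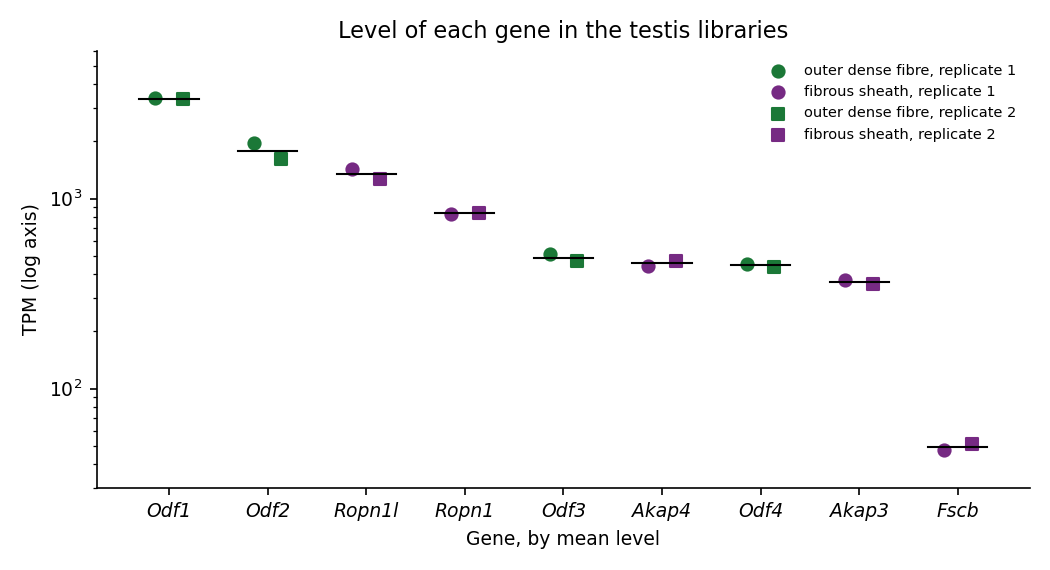
TPM of the 9 genes on a log axis, ordered by mean level, with replicate 1 as circles, replicate 2 as squares, the mean as a line, outer dense fibre genes in green and fibrous sheath genes in purple. Odf1 lies at 3369 and 3327, most genes lie between 355 and 1953, and Fscb lies at 47.3 and 51.2.

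The libraries were compared next, to see how far each level held between them. No gene of the 9 differed by more than 1.5-fold, against 7.03% of the 15533 detected genes. Of those genes 3.68% were past that fold with replicate 1 higher and 3.35% with replicate 2 higher. The median absolute log2 ratio was 0.09 for the 9 genes, 0.17 for those 15533 genes and 0.13 for the 1653 protein-coding genes averaging 100 TPM or more. Replicate 1 was higher for 6 of the 9 and replicate 2 for 3.

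Ratios are given as replicate 1 over replicate 2 on scaled counts, with a 95% interval that covers counting error only. The log2 ratio was 0.20 (0.17 to 0.22) for Ropn1l, 0.17 (0.16 to 0.19) for Odf2 and 0.16 (0.13 to 0.19) for Odf3. Akap3 and Odf4 followed at 0.09 and 0.07, and Odf1 was at 0.04 (0.03 to 0.05). Ropn1, Akap4 and Fscb had ratios of -0.06, -0.07 and -0.10. Every interval excluded 0, so on this scale the libraries differed by more than counting noise for each gene. The intervals take the scaling as exact, however, and for Odf1 the log2 ratio on TPM, 0.02, lay below its interval. A ratio of single libraries also has no error between replicates. In whole tissue, fewer cells of a type and less RNA per cell cannot be told apart. The marker sums given above also differed between the libraries. Those of the spermatocytes, Leydig cells and epididymis did so mostly through Ldhc, Insl3 and Crisp1. The part of the marker sums in these ratios was not tested.

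**Figure D3:**
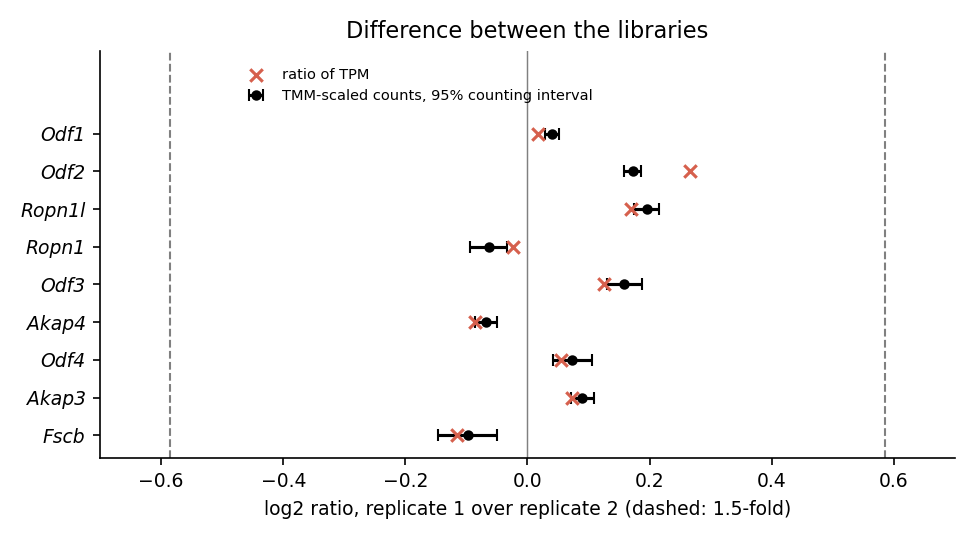
Log2 ratio of replicate 1 over replicate 2 for each gene, from scaled counts with 95% counting intervals (black) and from TPM (red crosses), with dashed lines at 1.5-fold. All 9 genes lie between the dashed lines. The TPM ratio lies outside the counting interval for 5 of them, Odf1, Odf2, Ropn1l, Ropn1 and Odf3, with Odf2 farthest, at 0.27 against 0.16 to 0.19.

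The annotated transcripts behind each level were examined next. Odf1, Akap3, Fscb and Ropn1l have 1 transcript each in the files, which therefore holds 100% of TPM. The other 5 genes have several, and the share of each transcript is an estimate made by the authors when they assigned reads to overlapping models. Over 9553 detected protein-coding genes with several transcripts, the leading transcript held a median of 67.9% of TPM. Its share differed between the libraries by more than 5 points in 43.8% of them, and among the 5 genes here it did so in 2, Odf2 and Ropn1.

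Odf4 was led by a transcript annotated as a target of nonsense-mediated decay, the pathway that degrades mRNAs with a premature stop codon. Odf4-203 held 71.4% of Odf4 TPM in replicate 1 and 68.1% in replicate 2. Odf4-201, which encodes the full protein in 870 bases of coding sequence, held 9.79% in replicate 1 and 13.9% in replicate 2. The level of Odf4-203 was 324 TPM (deposited interval 314 to 328) in replicate 1, against 298 TPM (288 to 301) in replicate 2. Odf4-201 stood at 44.5 TPM (40.6 to 48.1) in replicate 1, against 60.6 TPM (56.0 to 64.6) in replicate 2. The order of these transcripts was the same in both libraries, and the full-length form had its higher level in replicate 2.

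What separates these models of Odf4 is the 3′ end of an internal exon, which in Odf4-203 is 22 bases longer than in Odf4-201. The sequence of that exon end, from GENCODE M21 transcripts on GRCm38, has the 22 extra bases in capitals after the last 60 bases common to both.
Odf4 exon end, chr11:68922819-68922900, minus strand: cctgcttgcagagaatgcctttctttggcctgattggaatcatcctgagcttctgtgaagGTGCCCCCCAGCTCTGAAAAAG

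In the annotation, the reading frame of Odf4-203 runs 14 bases into the extra stretch and ends there at the stop codon TGA, giving a coding length of 534 bases. Odf4-202 and Odf4-204 include the same stretch and end at the same annotated stop codon. Transcripts with the extra 22 bases together held 90.2% of Odf4 TPM in replicate 1 and 86.1% in replicate 2, and 89.8% and 85.6% of its counts. The form without them rests on 1573 and 2226 expected counts.

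Set beside other genes, the share of Odf4 in decay-annotated transcripts was high. It was 77.0% in replicate 1 and 74.6% in replicate 2 (75.8% ± 1.74, SD, n = 2), with Odf4-204 included. The median was 4.73% over 2561 detected protein-coding genes with such a transcript. Of those genes 203 (7.93%) had more than 50% of TPM in such transcripts, and 71 had a higher share than Odf4. The annotation class is a prediction from the reading frame, and no measurement of RNA decay was made here.

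Odf2 had 25 annotated transcripts, the most of the set, and its leading transcript by TPM has no coding sequence. Odf2-220, a processed transcript of 349 bases on chromosome 2 at 29890083 to 29890990, held 34.7% of Odf2 TPM in replicate 1 and 27.0% in replicate 2. By expected counts it held 4.50% in replicate 1 and 3.14% in replicate 2. TPM divides counts by the effective length of a transcript, so few reads on a short model give a high TPM. Over the 10 transcripts without a coding sequence, the share of TPM was 53.7% in replicate 1 and 48.7% in replicate 2, and the share of counts 11.5% and 10.5%.

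Most Odf2 counts fell on coding transcripts that end after the shorter coding sequence, the kind known for outer dense fibres. These 6 complete forms held 80.7% of Odf2 counts in replicate 1 and 80.6% in replicate 2, and 42.5% and 45.9% of its TPM. Odf2-201, with 17 exons and a coding length of 1914 bases, was the main one, with 565 TPM in replicate 1 and 478 TPM in replicate 2. Odf2-211, with a coding length of 2103 bases followed at 157 in replicate 1 and 161 in replicate 2. The first of these had its higher level in replicate 1, and the second was nearly level.

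Coding forms with a longer 3′ part, as described for the centriolar protein cenexin in human cells, were a minor component. The 5 models of this kind summed to a TPM of 43.8 in each library, or 2.24% of Odf2 TPM in replicate 1 and 2.70% in replicate 2. Nearly all of it was Odf2-206, at 41.1 in replicate 1 and 42.0 in replicate 2. The shorter coding forms stood 18.9 times higher in replicate 1 and 17.0 times higher in replicate 2. The level of the long forms was the same to 3 digits in both libraries, while that of the short forms was 829 in replicate 1 and 746 in replicate 2.

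An alternative exon end also divides the coding forms of Odf2. One internal exon has either 69 or 126 bases. The longer version is shown from GENCODE M21 transcripts on GRCm38, with its 57 extra bases in capitals.
Odf2 exon, chr2:29893444-29893569, plus strand: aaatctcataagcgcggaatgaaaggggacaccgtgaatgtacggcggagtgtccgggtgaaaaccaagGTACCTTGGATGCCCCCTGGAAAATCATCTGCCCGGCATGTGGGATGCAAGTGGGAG

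Among the 6 complete short forms, those with the extra stretch summed to 168 TPM in replicate 1 and 182 TPM in replicate 2. Those without it summed to 661 TPM in replicate 1 and 564 TPM in replicate 2. The version without the extra bases was thus the higher in both libraries, and unlike in Odf4 the annotated reading frame continues through the longer version.

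Which transcript carried the difference between libraries at the Odf2 gene level depended on the scale. Odf2 TPM was 329 higher in replicate 1, and Odf2-220 accounted for 238 of this, at 677 TPM (deposited interval 641 to 699) in replicate 1, against 439 TPM (410 to 459) in replicate 2. The complete short coding forms accounted for 83.5 TPM. On scaled counts per 1e6 the gene was 206 higher in replicate 1, and Odf2-201 accounted for 81.4% of this and Odf2-220 for 15.2%. On TPM the log2 ratio of replicate 1 over replicate 2 for the gene was 0.27, and on scaled counts it was 0.17.

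**Figure D4:**
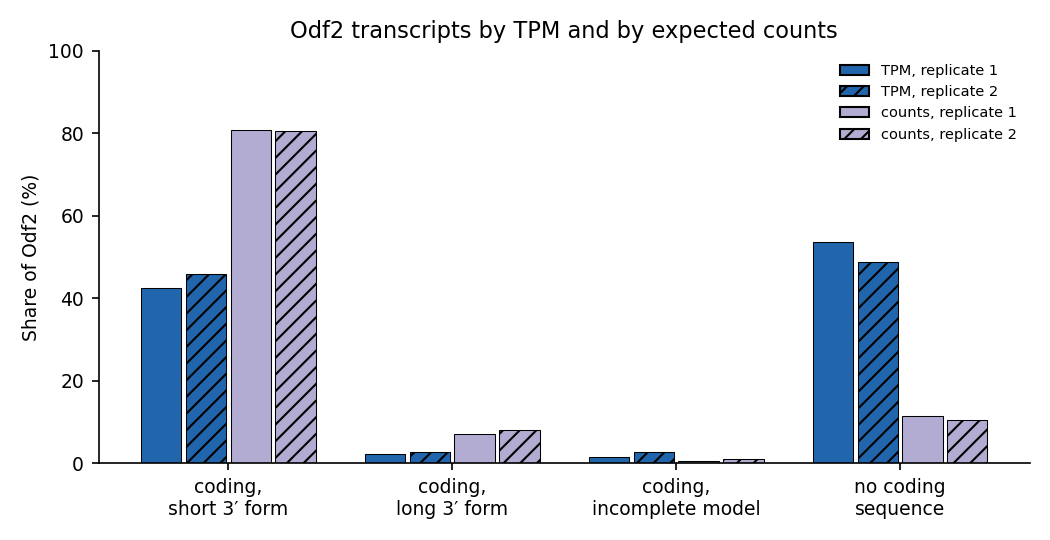
Share of Odf2 in 4 classes of its transcripts, by TPM (dark) and by expected counts (light), with replicate 1 plain and replicate 2 hatched. Transcripts without a coding sequence hold 53.7% and 48.7% of TPM and 11.5% and 10.5% of counts.

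Akap4 transcripts use separate starts, those whose sequences are shown above. Odf4 and Odf2 differed at exon ends, whereas Akap4-203, which begins at the downstream start, held 76.8% of Akap4 TPM in replicate 1 and 76.9% in replicate 2. The transcripts from the upstream start, Akap4-201 and Akap4-202, summed to 23.2% in replicate 1 and 23.1% in replicate 2. The window of the upstream start, with 23.2% ± 0.0820 (SD, n = 2) of TPM, holds the 20-base run shared with Akap3, and the window of the downstream start does not. Akap4-201 has a coding length of 2547 bases, against 2520 for the other models. These shares differed between the libraries by 0.12 points for the leading transcript, the least among the 5 genes with several transcripts.

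Ropn1 was divided between models with different first exons. Ropn1-201, the complete model of 6 exons, held 47.6% of TPM in replicate 1 and 55.9% in replicate 2. Ropn1-202, a model of 575 bases that the annotation marks as incomplete at its 3′ end, held 52.4% in replicate 1 and 44.1% in replicate 2. The leading transcript by TPM thus changed from one library to the other. Ropn1-201 itself stood at 394 TPM (deposited interval 382 to 399) in replicate 1, against 471 TPM (458 to 475) in replicate 2, and these intervals did not overlap. By counts Ropn1-201 led in both libraries, with 62.1% of Ropn1 counts in replicate 1 and 69.7% in replicate 2.

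Odf3 was mostly 1 coding transcript. Odf3-201 held 89.2% of TPM in replicate 1 and 90.7% in replicate 2. Odf3-203, a model with a retained intron, held 10.1% in replicate 1 and 8.76% in replicate 2, on 2959 and 2451.5 expected counts. GENCODE M21 places another gene, Gm45785, over Odf3 on the opposite strand. It has no row in the tables used here, and no source used here says whether counting used strand. Whether reads from the opposite strand entered the Odf3 values is therefore not known.

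Other overlapping genes were low. Gm6361, a processed pseudogene within Ropn1l on the same strand, had 0.44 TPM in replicate 1 and 0 TPM in replicate 2, and the small nuclear RNA gene Gm23865 within Odf2 was listed at 0 in both. Across detected protein-coding genes the median share of TPM in protein-coding transcripts was 99.1%, and it was 92.3% over those with several transcripts. Of all detected protein-coding genes 10.96% had a lower share than Odf2 and 4.14% a lower share than Odf4.

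**Figure D5:**
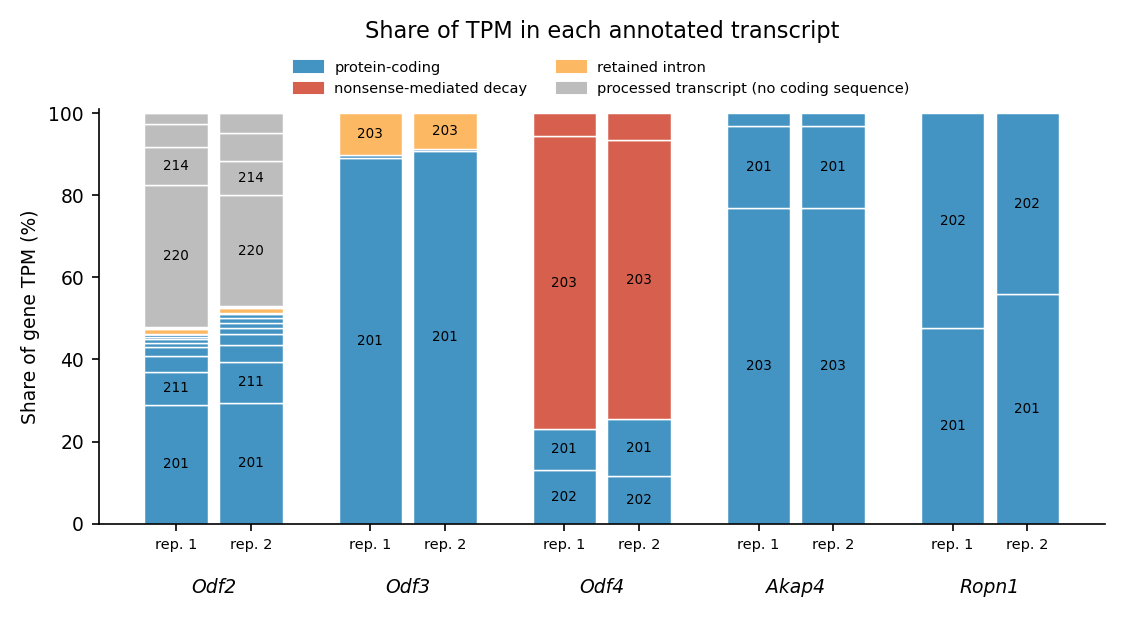
Share of gene TPM in each annotated transcript for the 5 genes with several transcripts, replicate 1 left of replicate 2, coloured by annotation class, with numbers naming transcripts (201 under Odf2 is Odf2-201). The decay-annotated Odf4-203 holds 71.4% and 68.1% of Odf4, and the order of Ropn1-201 and Ropn1-202 differs between the libraries.

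Genes that work with these structures were taken from 6 lists, and 47 of their 51 genes were detected, beside 62.1% of all nuclear protein-coding genes. The libraries form 1 group, so these are levels and no test was made. The lists were chosen with earlier results of these data known, so the share detected is a description only. Genes whose products bind or accompany the outer dense fibres were detected in 8 of 8 cases, at a median TPM of 411 ± 5.56 (SD, n = 2). The highest were Tcp11 (3980 ± 425), Oaz3 (1921 ± 106) and Ccdc136 (1129 ± 110), and the lowest was the kinesin light chain gene Klc3 (29.8 ± 4.31; all SD, n = 2). Tcp11 was above Odf1 in both libraries, with 4281 TPM in replicate 1 and 3679 TPM in replicate 2.

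Genes associated with the fibrous sheath were detected in 13 of 13 cases, at a median TPM of 245 ± 9.21 (SD, n = 2). Enzyme genes led them, with the sperm glyceraldehyde-3-phosphate dehydrogenase gene Gapdhs at 3825 ± 3.797, the lactate dehydrogenase gene Ldhc at 2911 ± 449 and the glutathione transferase gene Gstm5 at 2629.6 ± 149 (all SD, n = 2). These stood above each structural gene of the sheath described here. The gene of the very large sheath-interacting protein Fsip2 was the lowest, at 8.60 ± 1.03 (SD, n = 2). Fscb lay between these extremes.

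Close relatives of the fibre genes were fewer and lower, with 3 of 4 detected, at a median level of 26.7 ± 1.84 TPM (SD, n = 2). Odf3l1 was at 262 ± 2.37, Odf3b at 50.8 ± 4.29 and Odf2l, a relative of Odf2, at 2.65 ± 0.601 (all SD, n = 2). Odf3l2 had no count in either library, which allows up to 3 counts, or 6.12e-06% of counts in replicate 1 and 5.83e-06% in replicate 2.

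Other A-kinase anchoring protein genes were detected in 10 of 12 cases, at a median TPM of 8.10 ± 0.615 (SD, n = 2). Akap1, for an anchoring protein of the mitochondrial surface, was at 480 ± 5.71 and Akap12 at 355 ± 4.77, followed by Akap2 at 17.3 ± 2.13 (all SD, n = 2). Akap1 exceeded Akap4 in both libraries, and the ranges of Akap12 and Akap3 overlapped. Akap6 and Akap5 were under a TPM of 1, at 0.745 ± 0.149 and 0.135 ± 0.00710 (SD, n = 2).

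The kinase that these proteins anchor was represented by all 6 of its listed subunit genes, at a median TPM of 34.05 ± 0.559 (SD, n = 2). The regulatory subunit gene Prkar2a (94.7 ± 2.44), the catalytic subunit gene Prkaca (71.7 ± 1.68) and the regulatory subunit gene Prkar1a (62.7 ± 2.15) led, and Prkar2b was lowest (2.95 ± 0.0707; all SD, n = 2). Each subunit gene was below Akap3 and Akap4 in TPM. Genes of the centriole appendages, where cenexin resides, were detected in 7 of 8 cases at a median TPM of 46.8 ± 5.43 (SD, n = 2). Cep89 (67.8 ± 7.0), Cep170 (52.7 ± 1.81) and Cep164 (51.6 ± 3.18) were highest, and the ninein gene Nin was at 0.190 in both libraries. Beside these, the long Odf2 forms stood at 43.8 ± 0.014 TPM and the complete short forms at 788 ± 59.0 TPM (SD, n = 2).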

How the data were processed

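Poly(A)-selected RNA longer than 200 nucleotides was measured in 2 mouse testis libraries. Per the deposited readme, the authors quantified genes and transcripts on mm10 with annotation M4. The deposited expected counts estimate the reads per gene and transcript. The deposited TPM values were scaled by the authors to 1e6 over genes and spike-ins, and come with interval bounds around a posterior mean, of a level that no source used here states. The deposited percent of gene TPM per transcript (IsoPct) was used as given. The aligner and the counter are not named in those sources. An expected count divides reads between overlapping models.

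Symbols, classes and positions were looked up in GENCODE M21, which uses that assembly, without version numbers, and 42462 of 43346 genes matched. Of the 41 transcripts, 38 had the same length in the files and in M21. The members and lists were chosen with earlier results of these data known. Detection meant a TPM of 1 or more in each library. Ratios used expected counts rounded to whole numbers, scaled by TMM (edgeR 4.0.16, R 4.3.3) over genes reaching 10 counts in each library, with exact binomial 95% intervals (SciPy 1.17.1). DESeq2 1.42.0 size factors were an alternative. Intervals cover counting error only. Coding sequences were aligned with Biopython 1.88. Transcripts with an IsoPct of at least 10 in either library were named, as were the 3 highest and the lowest gene of each list with up to 3 under a TPM of 1. Other transcripts, some single marker genes and Tcp11's values per library were named after their values were seen. Splice junctions and contigs on mm9 were not used here.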

Additional observations from a re-analysis of the deposited data

How the results depend on the processing

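With posterior mean TPM, the median TPM of the 9 genes moved from 488 by less than the spread between the libraries. Without either library it was 469 to 509, the values from which that spread was taken. It was 577 when TPM was rescaled to nuclear protein-coding genes, whose smaller total raises every value, and 455 when only protein-coding transcripts were summed, an alternative chosen after seeing the data. No gene passed 1.5-fold between the libraries under DESeq2 size factors, TPM ratios, posterior mean counts or no filter on low counts. All 9 genes were detected, and 5 had a leading transcript of at least 80%, under each alternative run. Both results were largely fixed in advance. A TPM limit of 0.5, or leaving out 1 library, cannot lose a detected gene. The lowest count among the 9 genes was 6416, far above the alternative limit of 10. Of the 5 genes, 4 have only 1 transcript, so only Odf3 could have fallen below 80%. Of 153 alternative values for single genes, 118 stayed within the spread between libraries or the counting interval. The other 35 moved by more, and no ratio changed sign. Of the 35, 9 came from rescaling TPM to nuclear protein-coding genes, which raises every value. Another 9 were percentiles over all annotated protein-coding genes, where the added undetected genes raise every percentile. Some of the 118 were fixed in advance. Leaving out 1 library cannot move a mean TPM by more than the SD, and shares of genes with 1 transcript cannot change. Among the 35, Odf2 moved to a TPM of 868 and Odf4 to 108 when only protein-coding transcripts were summed. The full-length Odf4 transcript alone averaged 52.6. No paired analysis was possible because the samples form 1 group. Of 51 companion genes 47 were detected, and 48 to 50 under looser limits. Shares of transcripts rest on the authors' assignment of reads between overlapping models, and the deposited intervals are the only error given for it.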
